A study of Mus musculus with 8 samples.

Results

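Interferon-stimulated antiviral genes are the genes that cells switch on after an interferon signal to block the entry, translation and assembly of viruses. A set of 38 such genes, named by symbol, was looked up among the 24411 gene names of the count table. All 38 were found, all had counts above 0 in every library (25 to 13304 counts), and all were among the 14679 genes tested. They were set between aortas whose arterial endothelium carried an active IKK2 and aortas in which the same transgene was silent, library by library and also with the library Control 3 left out.

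RNA came from whole aortas of 8 mice. The 5 caIKK2EC mice were caIKK2(+/+) BMXCreERT2(+/-) ApoE(-/-), and the 3 Control mice were their littermates without Cre, caIKK2(+/+) BMXCreERT2(-/-) ApoE(-/-). IKK2 is a kinase that releases NF-κB, a transcription factor of inflammation, and the transgene codes for a form that needs no upstream signal, together with EGFP. It stays silent behind a loxP-flanked stop cassette until Cre removes that cassette. The Cre is driven by Bmx, a gene of arterial endothelium, so the other cells of the wall carry the silent form in both groups. Every mouse lacked Apoe, which makes plaques form on a fatty diet. Every mouse received tamoxifen (1 mg per 20 g) and a Western-type diet for 12 weeks. The series text speaks of early and late activation, and the labels do not say which of these holds for the 8 mice. The mice were 18 weeks (caIKK2EC 1 and 3, Control 1 and 2) or 19 weeks old (caIKK2EC 2, 4 and 5, Control 3). Control 3 was the only male, so among Controls its sex, its age and the library itself cannot be told apart. Total counts ran from 23461655 to 30808502 in caIKK2EC and from 23587995 to 26603624 in Control libraries. The deposited column names hold the number 7 for caIKK2EC 1 and the 3 Controls, and 8 for caIKK2EC 2 to 5. This number is read as the sequencing lane below, which the labels do not state.

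Type I and type III interferons bind receptors that are coupled to the kinases Jak1 and Tyk2. These phosphorylate STAT proteins, Stat2 among them, which join Irf9 in a complex that binds the interferon-stimulated response element, a short run of GAAA repeats in the promoters of many antiviral genes. Interferon-gamma acts through its own receptor and a different, palindromic element. Nucleic acid sensors that activate NF-κB and interferon regulatory factors start the production of the interferons themselves. In the artery wall, antiviral genes are known to be inducible in endothelium, smooth muscle and macrophages. RNA of a whole aorta sums all of these cells, so fewer cells of a type and less RNA per cell cannot be told apart in any value below.

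The promoters that hold the response element are shown first, because it is the sequence through which many antiviral genes are known to answer interferon, and it does not depend on the levels in these aortas. Windows from RefSeq (GRCm38.p6), running from 250 bases before a gene's start to 50 bases after it, were at hand for 29 of the 38 genes, and none was for Usp18, Mx1, Mx2, Parp9, Ifi27, Parp14, Oas1b, Oas2 and Rtp4. The core of the element, searched on both strands as GAAA, 2 bases of any kind and GAAA, was present in 14 of the 29 windows (48.3%) and in 3.99% of the 27025 gene windows of the table. The palindrome of the interferon-gamma response, searched as TTC, 3 bases of any kind and GAA, was in 7 (24.1%) against 9.55% of all windows. A core of the NF-κB element, searched on both strands as GGG, 5 bases of any kind and CC, was in 19 (65.5%) against 53.5%. In 10 windows both the interferon core and the NF-κB core were present. These matches are letters and not measured binding sites. Of the genes with the most matches to the interferon core, 6 are printed, with ties settled by level, and Lgals3bp is added, which was chosen after its counts were seen. Each window is written 5′ to 3′ on the strand of its gene. Capitals mark the interferon core or its reverse complement, TTTC, 2 bases and TTTC.
Isg15 (chr4:156200769-156201068, minus strand): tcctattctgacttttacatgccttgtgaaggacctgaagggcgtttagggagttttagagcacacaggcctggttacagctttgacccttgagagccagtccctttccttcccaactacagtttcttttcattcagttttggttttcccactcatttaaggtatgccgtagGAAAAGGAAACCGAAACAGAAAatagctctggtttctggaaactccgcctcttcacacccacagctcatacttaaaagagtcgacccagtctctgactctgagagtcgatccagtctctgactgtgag
Ifitm3 (chr7:141010695-141010994, minus strand): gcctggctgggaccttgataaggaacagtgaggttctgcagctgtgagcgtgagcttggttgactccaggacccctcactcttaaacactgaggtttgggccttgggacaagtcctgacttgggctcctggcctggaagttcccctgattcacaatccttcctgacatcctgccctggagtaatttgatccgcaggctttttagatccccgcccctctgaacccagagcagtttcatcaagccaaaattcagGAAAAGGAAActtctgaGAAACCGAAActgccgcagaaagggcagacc
Lgals9 (chr11:78984875-78985174, minus strand): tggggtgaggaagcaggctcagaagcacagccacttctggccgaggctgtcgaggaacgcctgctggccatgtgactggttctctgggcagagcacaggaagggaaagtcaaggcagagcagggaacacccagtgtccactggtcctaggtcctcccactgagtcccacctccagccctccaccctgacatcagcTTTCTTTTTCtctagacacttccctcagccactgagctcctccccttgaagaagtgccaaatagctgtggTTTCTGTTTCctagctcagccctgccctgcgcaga
Bst2 (chr8:71537423-71537722, minus strand): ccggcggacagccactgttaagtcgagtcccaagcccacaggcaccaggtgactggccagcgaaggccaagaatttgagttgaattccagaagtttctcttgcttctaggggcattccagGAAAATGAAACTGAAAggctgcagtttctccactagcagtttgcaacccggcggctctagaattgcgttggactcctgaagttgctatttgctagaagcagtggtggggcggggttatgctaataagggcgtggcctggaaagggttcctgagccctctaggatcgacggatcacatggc
Ifit3 (chr19:34583279-34583578, plus strand): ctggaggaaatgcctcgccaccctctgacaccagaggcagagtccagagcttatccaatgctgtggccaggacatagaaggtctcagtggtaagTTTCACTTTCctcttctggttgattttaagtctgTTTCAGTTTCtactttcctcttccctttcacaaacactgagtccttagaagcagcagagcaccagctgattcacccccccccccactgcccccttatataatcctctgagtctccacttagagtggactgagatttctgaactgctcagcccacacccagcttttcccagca
Ifit1 (chr19:34640639-34640938, plus strand): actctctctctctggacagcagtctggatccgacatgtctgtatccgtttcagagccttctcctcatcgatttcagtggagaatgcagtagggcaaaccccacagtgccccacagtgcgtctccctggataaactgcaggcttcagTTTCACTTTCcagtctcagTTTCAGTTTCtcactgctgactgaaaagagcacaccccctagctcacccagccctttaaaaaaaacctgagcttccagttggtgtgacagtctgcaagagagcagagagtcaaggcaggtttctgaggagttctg
Lgals3bp (chr11:118401910-118402209, minus strand): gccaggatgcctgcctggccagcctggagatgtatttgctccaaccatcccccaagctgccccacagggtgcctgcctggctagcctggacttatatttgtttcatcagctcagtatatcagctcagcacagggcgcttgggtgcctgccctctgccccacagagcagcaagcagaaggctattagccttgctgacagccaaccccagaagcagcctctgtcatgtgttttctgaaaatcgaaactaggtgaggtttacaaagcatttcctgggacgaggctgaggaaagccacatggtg

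In Isg15 the 3 matches ran into each other as 1 stretch that spans 78 to 57 bases before the start. Bst2 had 2 overlapping matches between 130 and 115 bases before the start, while the 2 matches of Ifit3 and of Ifit1 were separate. Both matches of Ifitm3 lay just after the start. The Lgals3bp window held no match to any of the 3 motifs as searched. It does hold GAAA, 3 bases and GAAA, a spacing that was not searched in any window.

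Across the 38 genes, levels were mostly a little higher in caIKK2EC aortas, and much of this difference came with 1 library, Control 3, in which the set was low. The log2 fold change, caIKK2EC over Control, was above 0 in 34 genes (89.5%), against 47.4% of all 14679 genes. Its median was 0.28 for the set and -0.02 over all genes, and the 38 values ran from -0.52 (Ifi27) to 0.89 (Ifitm1). With Control 3 left out, 30 genes stayed above 0 (78.9%, against 48.1% of 15022 genes), and the median was 0.12, against -0.01 over all genes. In 31 of the 38 genes the fold change came nearer to 0 without Control 3, and the share over all genes was not taken.

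The quasi-likelihood test of edgeR, adjusted over all genes by the Benjamini-Hochberg method at a threshold of 0.05, called none of the 38 genes and 0% of all genes. The lowest adjusted p of any gene was 0.107. At an unadjusted p under 0.05, edgeR had 9 of the 38 genes higher in caIKK2EC (23.7%, against 9.66% of all genes) and 1, Ifi27, lower (2.63%, against 7.47%). Without Control 3 these counts were 3 higher (7.89%), close to the 7.67% of all genes, and 0 lower (3.72% of all genes). DESeq2, the tool of the authors' own comparison, called 1 of the 38 genes higher, Lgals3bp (2.63%, against 4.55% of all genes with an adjusted p), and none lower (1.51% of all genes). In 4 genes the lowest caIKK2EC value exceeded the highest Control value (10.5%, against 7.01% of all genes): Lgals3bp, Oas3, Sp100 and Ifi47. No gene had the reverse (3.22% of all genes). Without Control 3, DESeq2 again called 1 of the 38 genes higher, Lgals3bp (2.49% of all genes), and none lower (0.231%). Also without Control 3, 4 genes were again free of overlap (10.5%), among backgrounds of 9.51% above and 6.19% below.

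**Figure D1:**
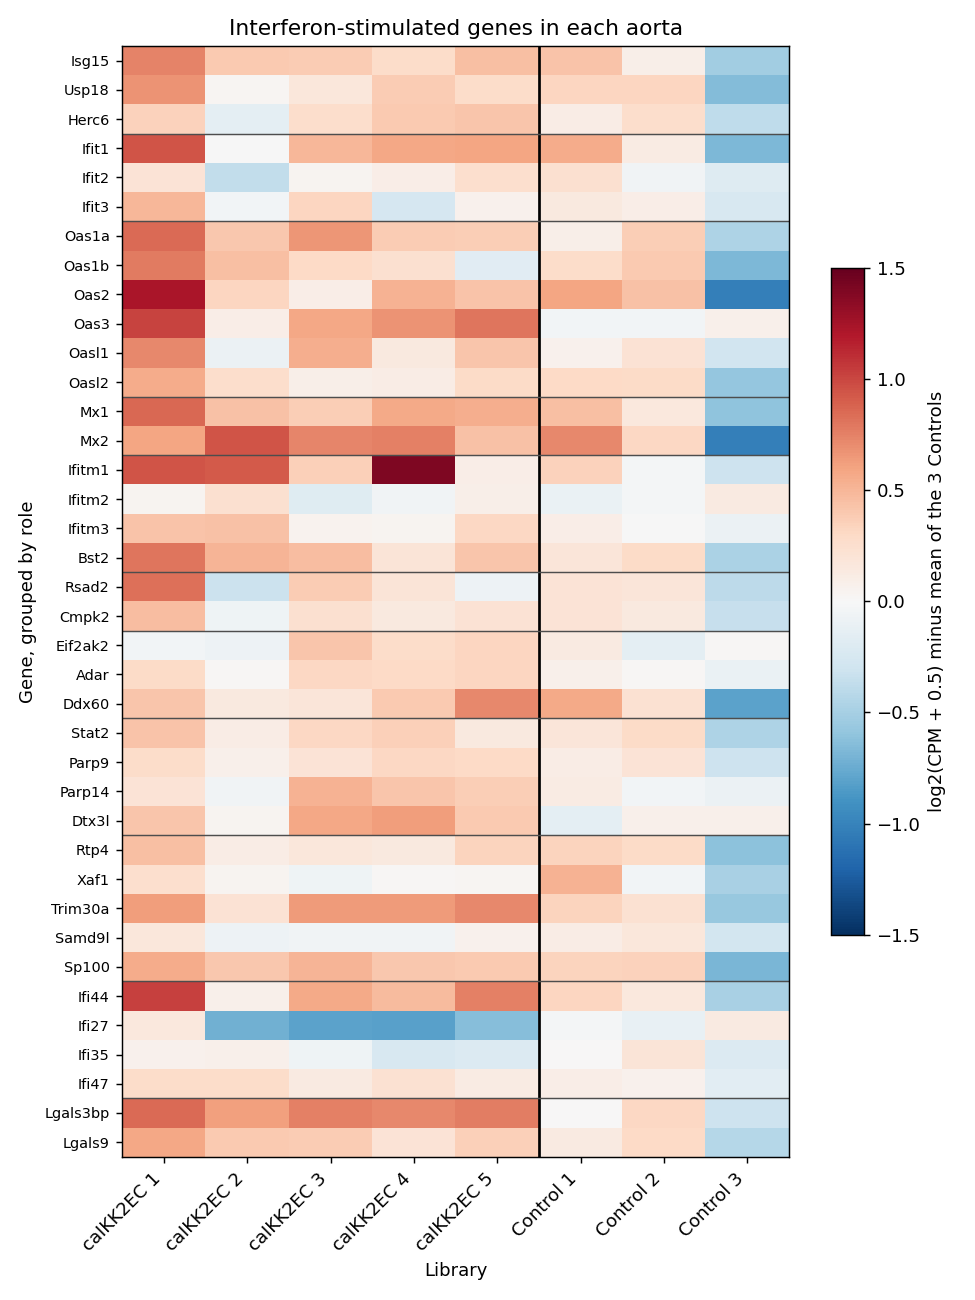
Each row is 1 of the 38 genes, grouped by role, and each column 1 library, with the 5 caIKK2EC libraries left of the line and the 3 Controls right of it. Colour gives the log2 of CPM (counts scaled to library size by TMM factors, with 0.5 added) minus the mean of the 3 Controls. The Control 3 column is blue in most rows, caIKK2EC 1 is the darkest red in many, and Controls 1 and 2 look much like the remaining caIKK2EC libraries.

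Per library, the median of the 38 log2 differences from the Control mean was 0.53, 0.11, 0.33, 0.29 and 0.33 in caIKK2EC 1 to 5, against 0.18, 0.19 and -0.40 in Control 1 to 3. By this measure caIKK2EC 2 lay below Controls 1 and 2, and caIKK2EC 1 and Control 3 were the extremes. Control 3 held the lowest value of all 8 libraries in 30 genes (78.9%), against 28.2% of all genes tested. It lay below both other Controls in 33 genes and above both in 4 (Ifi27, Ifitm2, Oas3 and Dtx3l), with a median log2 difference from them of -0.60, against -0.03 over all genes. The library caIKK2EC 1 was the highest of the 8 in 22 genes (57.9%, against 13.6% of all genes). Measured from the mean of Controls 1 and 2 alone, the medians of caIKK2EC 1 to 5 were 0.32, -0.07, 0.10, 0.04 and 0.14. In 34 of the 38 genes Control 1 or Control 2 lay above at least 1 caIKK2EC library. In the other 4 (10.5%) every caIKK2EC library lay above both, close to the 9.51% of all 15022 genes tested without Control 3. Within lane 7, the only lane with both groups, the comparison rests on caIKK2EC 1 alone, and a fit with lane as a term gave a median log2 fold change of 0.48.

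Markers of other cells also differed between libraries. For macrophage markers the order was partly that of the 38 genes, with Control 3 the lowest library. There the highest was caIKK2EC 3, and caIKK2EC 2 lay above Controls 1 and 2. For smooth muscle markers the ends of the order were reversed. The 21 macrophage markers, all present in the table and none at 0 throughout, summed to 14814, 12204, 17360, 13916 and 15608 CPM in caIKK2EC 1 to 5, against 9956, 10111 and 3722 CPM in Control 1 to 3. DESeq2 called 16 of the 20 tested higher in caIKK2EC (80%, against 4.55% of all genes), with a median log2 fold change (edgeR) of 0.87. Without Control 3 it called 14 of 21 higher (66.7%, against 2.49% of all genes), and the median was 0.63. The 10 smooth muscle markers summed to 11424, 23898, 16095, 15324 and 15780 CPM in caIKK2EC libraries, against 21168, 24677 and 41099 CPM in Controls, so that Control 3 was the highest and caIKK2EC 1 the lowest. The 13 endothelial markers, Pecam1, Cdh5 and Bmx among them, summed to 3049 to 3832 CPM in caIKK2EC and to 1955 to 3604 CPM in Control libraries. The part of cell makeup in the antiviral values was not tested. The 8 markers of plasmacytoid dendritic cells, the main interferon producers of the blood, summed to 27.8, 10.6, 5.17, 9.86 and 7.18 CPM in caIKK2EC, against 55.8, 7.77 and 5.96 CPM in Control libraries. The higher sums of caIKK2EC 1 and Control 1 came mostly from Cox6a2, a gene also expressed in muscle, at 23.3 CPM in caIKK2EC 1 and 47.6 CPM in Control 1.

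**Figure D2:**
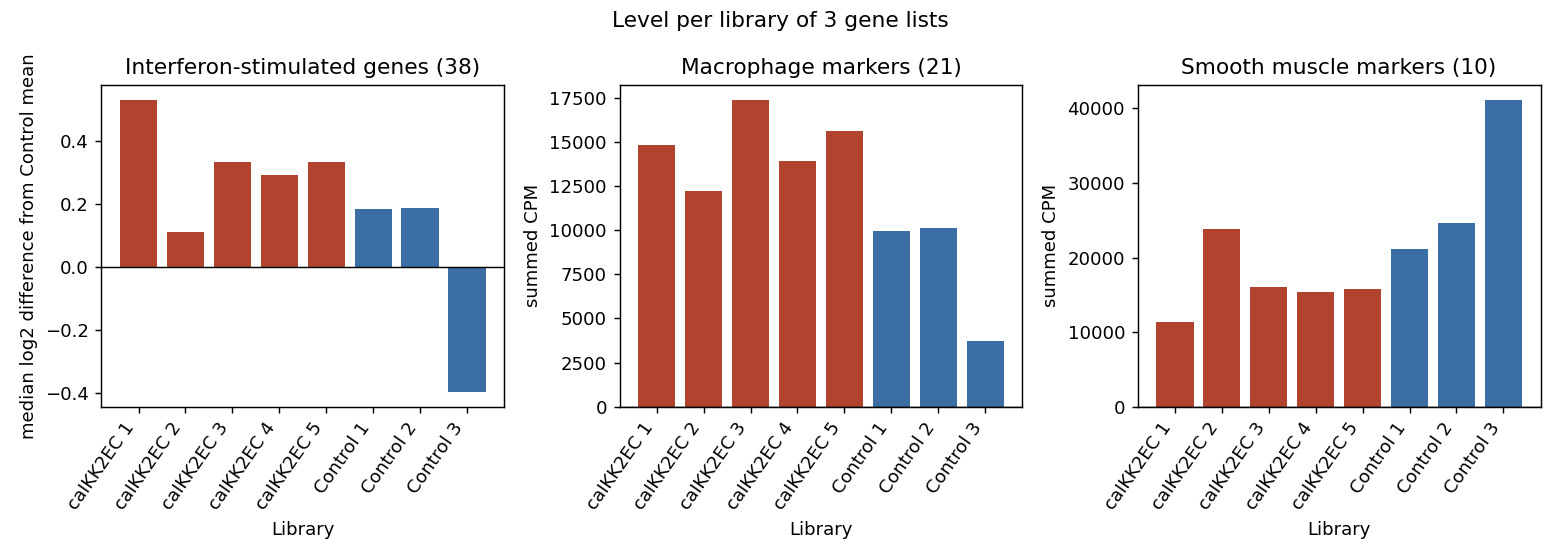
Bars give 1 library each, caIKK2EC in red and Control in blue. The left panel is the median log2 difference of the 38 genes from the Control mean, and the others are summed CPM of macrophage and smooth muscle markers. Control 3 is the lowest in the left and middle panels (-0.40 and 3722 CPM) and the highest in the right one (41099 CPM).

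Levels per length of exon, which allow genes to be compared, spanned a wide range. The same 6 genes led in both groups: Ifitm3, Ifitm2, Ifi27, Lgals3bp, Bst2 and Lgals9. Ifitm3 had 391 ± 52.0 CPM per kb in caIKK2EC (SD, n = 5) and 326.2 ± 21.1 CPM per kb in Control aortas (SD, n = 3). The genes at the bottom were Oas3, with 0.914 ± 0.215 CPM per kb in caIKK2EC and 0.551 ± 0.0289 CPM per kb in Control, and Ddx60, with 0.869 ± 0.153 CPM per kb in caIKK2EC and 0.706 ± 0.328 CPM per kb in Control (SD, n = 5 and 3). For 9 genes more than 5% of the 50-base words of their exons, the length of the reads, also occur in another gene. The highest shares were 57.6% for Oas1a (with Oas1g), 51.2% for Ifit3 (with Ifit3b) and 48.5% for Ifitm2 (with Gm45717), and these 3 values are uncertain to that extent.

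The galectin group held the only one of the 38 genes that DESeq2 called. Lgals3bp (chr11:118392751-118402092, minus strand, GRCm38) codes for a secreted glycoprotein that binds galectin-3 and is induced by interferons. Its levels were 456, 388, 426, 415 and 430.3 CPM in caIKK2EC 1 to 5, against 253, 313 and 204 CPM in Control 1 to 3. The groups did not overlap, and the caIKK2EC libraries were close to each other. The means were 423 ± 24.8 CPM in caIKK2EC (SD, n = 5) and 257 ± 54.5 CPM in Control (SD, n = 3), a 1.65-fold difference. The log2 fold change was 0.72 (SE 0.15, edgeR adjusted p = 0.107). DESeq2 gave an adjusted p of 0.000495, the same as in the authors' deposited table. Without Control 3 the log2 fold change was 0.58 (SE 0.13), with an adjusted p of 0.215 by edgeR and 0.00134 by DESeq2. The log2 difference of caIKK2EC 1 from its lane's Controls was 0.85. Lgals9, the gene of galectin-9, had 112 ± 10.4 CPM in caIKK2EC and 87.9 ± 21.8 CPM in Control aortas (SD, n = 5 and 3; log2 fold change 0.35, edgeR adjusted p = 0.305, and 0.17 without Control 3), with overlapping groups.

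**Figure D3:**
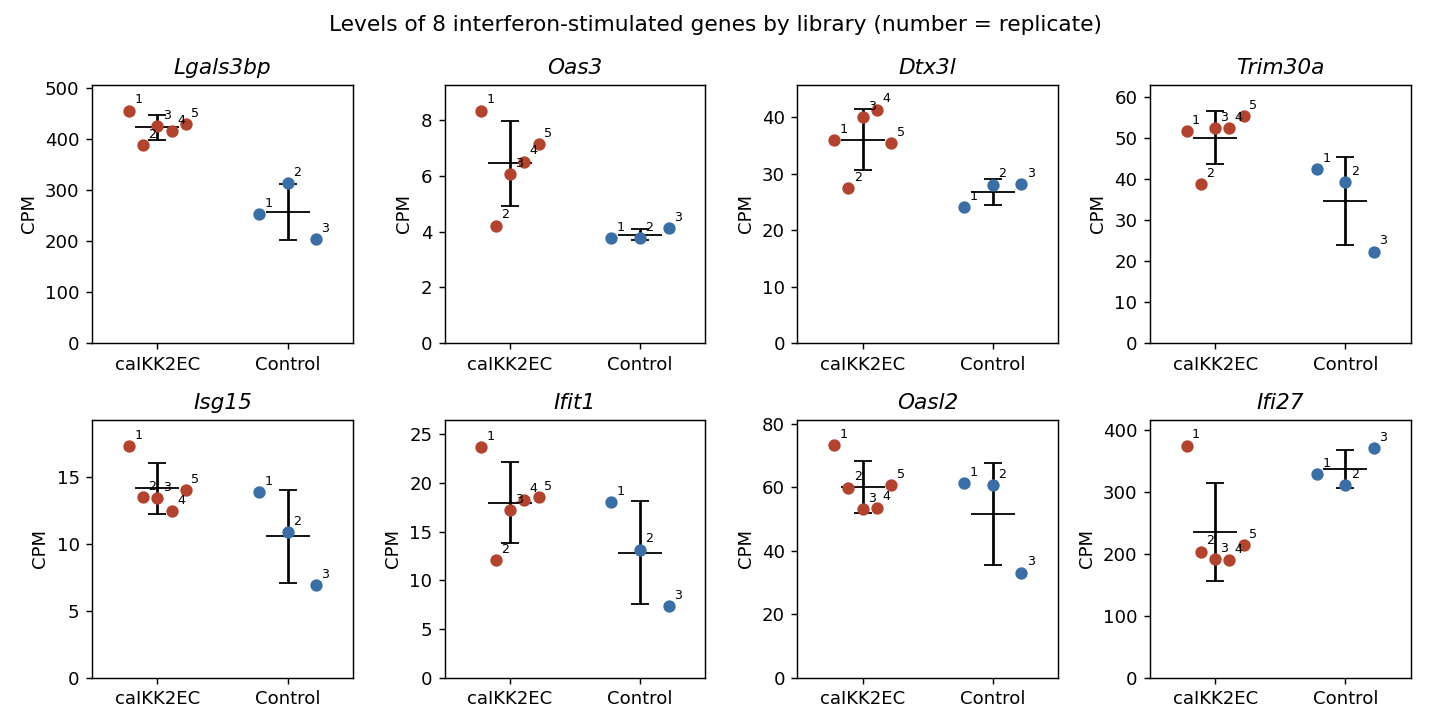
CPM of 8 of the genes in each library, caIKK2EC left (red) and Control right (blue); numbers name the replicate, the long line is the mean and the bars are 1 SD (n = 5 and n = 3). Lgals3bp and Oas3 show no overlap, and Control 3 lies well below Controls 1 and 2 in Isg15, Ifit1, Oasl2 and Trim30a.

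The ISG15 system tags proteins with the ubiquitin-like Isg15. It is conjugated in the mouse mainly by the ligase Herc6 and removed by Usp18, which also restrains the interferon receptor. Isg15 (chr4:156199424-156200818, minus strand), whose promoter with 3 matches is printed above, had 17.3, 13.5, 13.4, 12.4 and 14.0 CPM in caIKK2EC 1 to 5, against 13.9, 10.9 and 6.93 CPM in Control 1 to 3. Control 1 lay within the range of caIKK2EC libraries and Control 3 far below it. The log2 fold change was 0.42 (SE 0.22, edgeR adjusted p = 0.364) and 0.19 without Control 3. Herc6 had 19.4, 13.7, 18.4, 20.1 and 20.5 CPM in caIKK2EC libraries, against 16.4, 18.4 and 11.6 CPM in Controls. Both groups overlapped (log2 fold change 0.25, SE 0.19, and 0.0815 without Control 3), and 12.5% of its 50-base words also occur in Gm45193. Usp18 had a log2 fold change of 0.27, and of 0.00066 without Control 3.

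IFIT proteins bind viral RNA and block its translation. Ifit1 (chr19:34640871-34650009, plus strand) had 23.7, 12.1, 17.3, 18.3 and 18.5 CPM in caIKK2EC 1 to 5, against 18.0, 13.2 and 7.39 CPM in Control 1 to 3. The lowest caIKK2EC library, caIKK2EC 2, lay below Controls 1 and 2. The log2 fold change was 0.48 (SE 0.29, edgeR adjusted p = 0.422) and 0.21 without Control 3. Ifit2, the most abundant of the 3, had 22.8, 15.1, 20.2, 21.1 and 23.5 CPM in caIKK2EC libraries, against 23.3, 18.9 and 17.2 CPM in Controls, and the groups covered nearly the same range (log2 fold change 0.05, SE 0.17, and -0.038 without Control 3). Ifit3 had a log2 fold change of 0.13, and of 0.019 without Control 3.

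Oligoadenylate synthetases sense double-stranded RNA and make the messenger that activates the nuclease RNase L. Oas3 (chr5:120753098-120777661, minus strand) had 8.35, 4.21, 6.06, 6.51 and 7.15 CPM in caIKK2EC 1 to 5, against 3.78, 3.77 and 4.13 CPM in Control 1 to 3. The groups did not overlap, although caIKK2EC 2 lay just above Control 3. Here Control 3 was the highest Control, and the log2 fold change was 0.73 (SE 0.24, edgeR adjusted p = 0.180, DESeq2 adjusted p = 0.0539) and 0.78 without Control 3 (edgeR adjusted p = 0.355, DESeq2 adjusted p = 0.135). Oasl2, the most abundant member of the family, had 73.2, 59.8, 53.0, 53.5 and 60.7 CPM in caIKK2EC libraries, against 61.2, 60.6 and 33.1 CPM in Controls. Controls 1 and 2 lay inside the caIKK2EC range, and the log2 fold change of 0.22 (SE 0.20) became -0.02 without Control 3. The other 4 members (Oas1a, Oas1b, Oas2 and Oasl1) had log2 fold changes between 0.31 and 0.52. Without Control 3 the log2 fold change was 0.32 for Oas1a, 0.0185 for Oas1b, 0.0619 for Oas2 and 0.26 for Oasl1. Oas2 was at 35.7 CPM in caIKK2EC 1 and at 7.11 CPM in Control 3.

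Mx proteins are dynamin-like GTPases that trap viral nucleocapsids. Mx1 had 6.95, 5.10, 4.83, 5.62 and 5.50 CPM in caIKK2EC 1 to 5, against 5.11, 4.10 and 2.20 CPM in Control 1 to 3. Mx2 had 4.58, 5.98, 5.08, 5.16 and 4.08 CPM in caIKK2EC libraries, against 5.04, 3.66 and 1.15 CPM in Controls. In both genes Control 1 lay within the caIKK2EC range and Control 3 was the lowest library. The log2 fold changes were 0.55 (SE 0.28) for Mx1 and 0.59 (SE 0.39) for Mx2, and 0.28 and 0.19 without Control 3. The GENCODE annotation lists Mx2 and Oas1b as polymorphic pseudogenes, meaning that some mouse strains carry a disrupted form.

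Proteins of the IFITM family sit in membranes and hinder the fusion of enveloped viruses, and tetherin, the product of Bst2, holds budding viruses on the cell. Ifitm3 (chr7:141009586-141010770, minus strand) had 297, 299.996, 229, 228 and 273 CPM in caIKK2EC 1 to 5, against 236, 220.1 and 207 CPM in Control 1 to 3. Of the caIKK2EC libraries, 3 and 4 lay below Control 1 and the others above all Controls (log2 fold change 0.26, SE 0.14, edgeR adjusted p = 0.356). Ifitm1, a gene of low level here, had 6.18, 6.07, 3.93, 8.65 and 3.20 CPM in caIKK2EC libraries, against 3.89, 2.88 and 2.29 CPM in Controls. It had the highest log2 fold change of the set, 0.89, with a wide error (SE 0.35, edgeR adjusted p = 0.240), and caIKK2EC 5 lay below Control 1. Bst2 had 98.1 ± 15.3 CPM in caIKK2EC and 71.5 ± 18.8 CPM in Control aortas (SD, n = 5 and 3; log2 fold change 0.46, and 0.25 without Control 3). Ifitm2 differed least in this family (log2 fold change 0.03, and 0.10 without Control 3).

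Viperin, the product of Rsad2, makes a nucleotide that stops viral polymerases, and Cmpk2, its neighbour on chromosome 12, is a nucleoside monophosphate kinase. Rsad2 had 21.99, 9.65, 16.1, 14.0 and 11.6 CPM in caIKK2EC 1 to 5, against 14.2, 13.9 and 9.22 CPM in Control 1 to 3. Cmpk2 had 18.5, 12.8, 15.8, 14.8 and 15.6 CPM in caIKK2EC libraries, against 15.4, 14.8 and 10.4 CPM in Controls. In both genes caIKK2EC 1 was the highest and Control 3 the lowest library, with the others mixed between groups. The log2 fold changes were 0.23 (SE 0.27) for Rsad2 and 0.19 (SE 0.17) for Cmpk2, and 0.06 and 0.04 without Control 3.

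Of the proteins that bind double-stranded RNA, Adar edits adenosine to inosine, Eif2ak2 (PKR) stops translation and Ddx60 is a helicase that aids RNA sensing. Adar (chr3:89715022-89753446, plus strand) had 76.9, 63.9, 78.4, 77.4 and 79.2 CPM in caIKK2EC 1 to 5, against 66.4, 63.9 and 59.0 CPM in Control 1 to 3. Apart from caIKK2EC 2, which lay among the Controls, the caIKK2EC libraries were above all Controls (log2 fold change 0.25, SE 0.11, edgeR adjusted p = 0.269, and 0.21 without Control 3). On the opposite strand, Chrnb2 overlaps 16.8% of its exon bases. Ddx60 had 7.73, 6.32, 6.49, 7.55 and 9.64 CPM in caIKK2EC libraries, against 8.63, 6.73 and 3.03 CPM in Controls, with a log2 fold change of 0.30 (SE 0.31) that became -0.02 without Control 3. Eif2ak2 had a log2 fold change of 0.19 with and without Control 3.

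Stat2 is a subunit of the interferon-activated complex, and Parp9, Parp14 and the ubiquitin ligase Dtx3l work with STAT proteins and in ADP-ribosylation. Parp14, the most abundant, had 66.1, 55.3, 82.8, 76.6 and 74.6 CPM in caIKK2EC 1 to 5, against 62.8, 55.7 and 54.2 CPM in Control 1 to 3. Dtx3l (chr16:35926511-35939151, minus strand) had 35.9, 27.5, 40.1, 41.4 and 35.4 CPM in caIKK2EC libraries, against 24.04, 28.1 and 28.2 CPM in Controls. In both genes 4 caIKK2EC libraries lay above all Controls and caIKK2EC 2 among them. The log2 fold change of Dtx3l was 0.43 (SE 0.15, edgeR adjusted p = 0.192, DESeq2 adjusted p = 0.107) and 0.47 without Control 3. That of Parp14 was 0.30 (SE 0.14), and 0.26 without Control 3. Parp9 and Dtx3l overlap on opposite strands by 9.4% and 8.0% of their exon bases. Stat2 had a log2 fold change of 0.24, and of 0.04 without Control 3.

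Among the other effectors, Trim30a (chr7:104409025-104465193, minus strand) is known in the mouse as a restraint on NF-κB signalling, Sp100 belongs to nuclear bodies, and Samd9l restricts poxviruses. Trim30a had 51.6, 38.8, 52.4, 52.5 and 55.3 CPM in caIKK2EC 1 to 5, against 42.4, 39.3 and 22.3 CPM in Control 1 to 3. In this gene caIKK2EC 2 lay among the Controls and the other caIKK2EC libraries above them, and the log2 fold change was 0.53 (SE 0.21, edgeR adjusted p = 0.235), and 0.30 without Control 3. Samd9l had 54.7, 46.0, 46.8, 46.8 and 51.0 CPM in caIKK2EC libraries, against 52.7, 54.7 and 40.0 CPM in Controls, and the group means were 49.0 CPM in caIKK2EC and 49.1 CPM in Control (log2 fold change -0.0018, and -0.13 without Control 3). Sp100 had 42.2 to 47.5 CPM in caIKK2EC and 40.7, 40.9 and 19.7 CPM in Control libraries. Its groups did not overlap, but Controls 1 and 2 sat close under the lowest caIKK2EC value (log2 fold change 0.38, and 0.11 without Control 3). Rtp4 and Xaf1 had log2 fold changes of 0.19 and -0.0011, and of -0.0645 and -0.22 without Control 3.

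The genes named IFI share a name and no family. Ifi27 (chr12:103434211-103440239, plus strand), one of the most interferon-responsive genes in human cells, had the largest difference in the other direction. It had 375, 204, 192, 190.4 and 215 CPM in caIKK2EC 1 to 5, against 329.5, 311.2 and 371 CPM in Control 1 to 3. The library caIKK2EC 1 was the highest of all and the other caIKK2EC libraries the lowest, with the Controls in between. The log2 fold change was -0.52 (SE 0.23, edgeR adjusted p = 0.281, DESeq2 adjusted p = 0.206), and -0.44 without Control 3. With lane as a term it was 0.16, since all libraries of lane 7 were high, and within lane 7 caIKK2EC 1 was 0.16 above the Control mean. The summed level of 7 adipocyte markers was 5426, 599, 1911, 1371 and 1823 CPM in caIKK2EC 1 to 5, against 2446, 3099 and 2433 CPM in Controls, so the same library and the 3 Controls were high there too, and the part of fat tissue or of the lane was not tested. Ifi44 had 11.7, 5.81, 8.37, 7.76 and 9.54 CPM in caIKK2EC libraries, against 6.96, 6.18 and 3.76 CPM in Controls (log2 fold change 0.61, SE 0.27, and 0.39 without Control 3), with caIKK2EC 2 below Controls 1 and 2. Ifi47, a GTPase of the IRG family, had a small difference with no overlap: 22.7 to 25.4 CPM in caIKK2EC and 18.6 to 22.4 CPM in Control libraries (log2 fold change 0.21, and 0.13 without Control 3). Ifi35 had a log2 fold change of -0.08, and of -0.18 without Control 3.

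**Figure D4:**
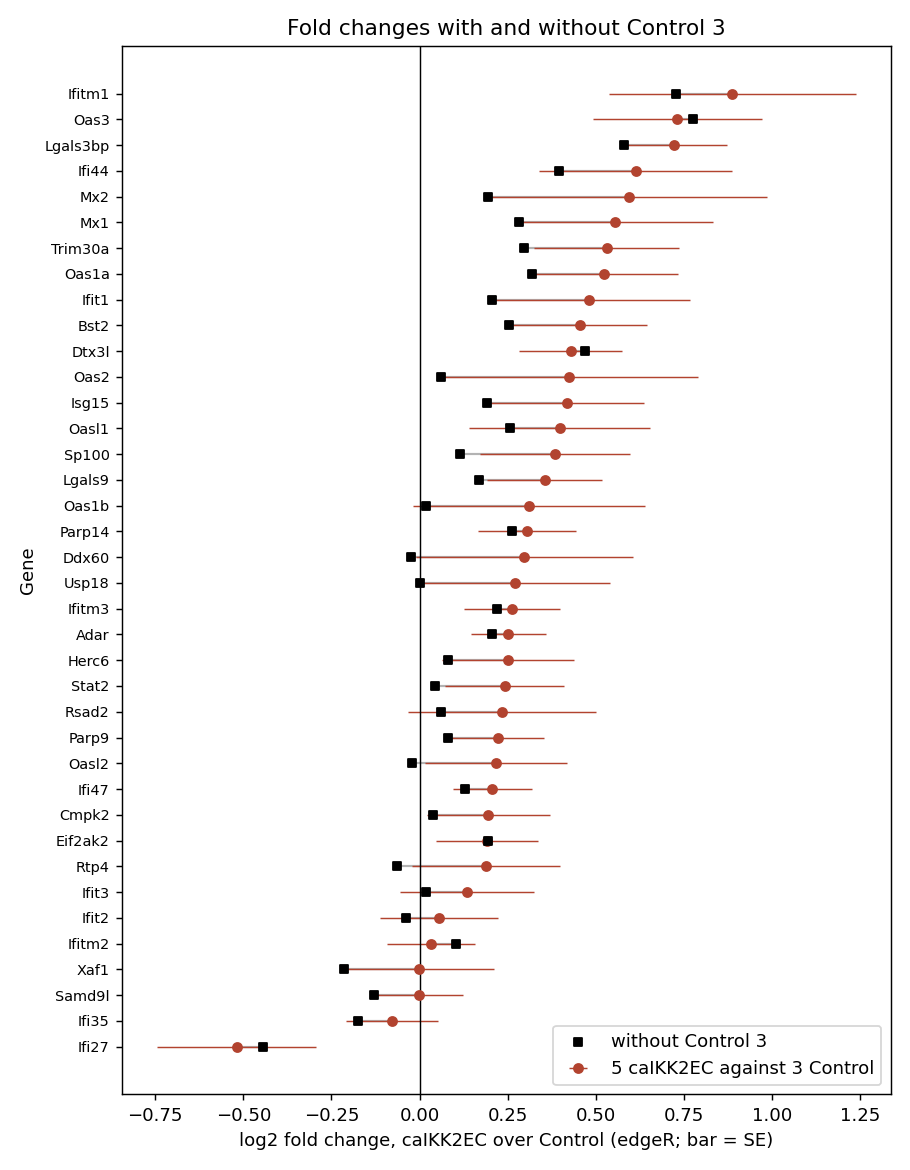
Log2 fold changes, caIKK2EC over Control, of the 38 genes from all 8 libraries (red, bar = SE) and without Control 3 (black). Most black squares lie left of the red points and close to 0, while Oas3 (0.78), Ifitm1 (0.73) and Lgals3bp (0.58) stay farthest to the right, and Ifi27 is far below 0 in both.

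Upstream of the antiviral genes, interferons themselves were hardly detected. Of 21 interferon genes in the table none had enough counts to be tested. The 20 genes other than Ifng had 11 counts in all libraries together, and 15 of them had none. Ifnb1, the interferon made by most infected cells, had 1 count, in caIKK2EC 1. Ifng, made by T and NK cells, had 9, 3, 0, 17 and 0 counts in caIKK2EC 1 to 5, against 0, 0 and 7 counts in Control 1 to 3. A count of 0 at this depth does not show that an interferon was absent from the wall.

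Of the 6 interferon receptor genes DESeq2 called 2 higher in caIKK2EC, against 4.55% of all genes. Without Control 3 it called 1 of the 6, against 2.49% of all genes. Ifnar1, a chain of the type I receptor, had 126, 133, 131, 162 and 144 CPM in caIKK2EC libraries, against 98.5, 103 and 82.1 CPM in Controls. No value overlapped, with a log2 fold change of 0.56 (SE 0.13, DESeq2 adjusted p = 0.00238, edgeR adjusted p = 0.109). Without Control 3 it was 0.47 (DESeq2 adjusted p = 0.0231). Il10rb, a shared chain of the interferon-lambda and interleukin-10 receptors, had 166 ± 18.6 CPM in caIKK2EC and 109.8 ± 21.9 CPM in Control (SD, n = 5 and 3; log2 fold change 0.60, DESeq2 adjusted p = 0.0137, and 0.0615 without Control 3). Ifngr1, the most abundant receptor gene, had 198 ± 14.5 CPM in caIKK2EC and 144 ± 39.7 CPM in Control (log2 fold change 0.46, DESeq2 adjusted p = 0.130, and 0.25 without Control 3). Ifnlr1, a chain of the interferon-lambda receptor, was at a low level, with 1.95 ± 0.291 CPM in caIKK2EC and 2.36 ± 0.144 CPM in Control (log2 fold change -0.27). Of the relay behind the receptors, Jak1, Jak2, Tyk2 and Irf9 were not called, with log2 fold changes from 0.13 to 0.29, and those of Tyk2 and Irf9 were 0.0514 and 0.0042 without Control 3. Jak1 had 207 ± 20.8 CPM in caIKK2EC and 171 ± 11.01 CPM in Control (log2 fold change 0.28).

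Of 6 brakes on the pathway DESeq2 called 2 higher, against 4.55% of all genes. Socs3, a feedback inhibitor of cytokine receptors, had 126 ± 20.7 CPM in caIKK2EC and 73.3 ± 13.6 CPM in Control (SD, n = 5 and 3; log2 fold change 0.78, DESeq2 adjusted p = 0.00229, edgeR adjusted p = 0.109). Ptpn6, a phosphatase of blood cells, had 95.7 ± 7.14 CPM in caIKK2EC and 49.9 ± 22.2 CPM in Control (log2 fold change 0.94, DESeq2 adjusted p = 0.0178), and a log2 fold change of 0.61 without Control 3 (DESeq2 adjusted p = 0.000107). Ptpn11, the most abundant brake, had a log2 fold change of -0.22, and of 0.0776 without Control 3. Of 8 interferon regulatory factors, the myeloid genes Irf5 and Irf8 were called higher, with log2 fold changes of 0.75 (DESeq2 adjusted p = 0.000846) and 0.88 (DESeq2 adjusted p = 3.05e-05), and both were called without Control 3 as well (DESeq2 adjusted p = 0.000826 and 0.0001). Irf8 had 104, 104, 109, 131 and 114 CPM in caIKK2EC, against 73.2, 61.8 and 48.0 CPM in Control libraries, without overlap. Irf7, itself an interferon-stimulated gene, was at 55.8 CPM in caIKK2EC 1, while the other caIKK2EC libraries (25.2 to 31.5 CPM) overlapped with the Controls (17.6 to 31.6 CPM). Irf3 had a log2 fold change of -0.06, and of -0.185 without Control 3.

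DESeq2 called 6 of 14 nucleic acid sensors and adaptors higher (42.9%, against 4.55% of all genes), and 2 without Control 3 (14.3%, against 2.49%). The median log2 fold change of the list was 0.70, and 0.44 without Control 3. Tmem173, which codes for the adaptor STING, had 63.9, 60.4, 58.7, 68.5 and 62.6 CPM in caIKK2EC 1 to 5, against 41.2, 41.5 and 32.2 CPM in Control 1 to 3. All caIKK2EC values were far above all Controls, with a log2 fold change of 0.71 (SE 0.12, DESeq2 adjusted p = 2.04e-05, edgeR adjusted p = 0.107). Without Control 3 it was 0.60 (DESeq2 adjusted p = 4.72e-05). Ddx58, the gene of the RNA sensor RIG-I, had 54.4, 52.0, 54.0, 60.5 and 55.9 CPM in caIKK2EC libraries, against 42.6, 42.9 and 37.3 CPM in Controls (log2 fold change 0.44, DESeq2 adjusted p = 0.00354, and 0.0288 without Control 3). Mb21d1, the gene of the DNA sensor cGAS, and Zbp1, Tlr7 and Tlr9 were the other 4 calls, with log2 fold changes of 0.75, 0.73, 0.83 and 0.69. All 4 lost the call without Control 3, at DESeq2 adjusted p of 0.0625, 0.162, 0.0691 and 0.115. Of the most abundant genes of the list, Trim25, a ligase that activates RIG-I, had a log2 fold change of 0.55 (DESeq2 adjusted p = 0.0606), and Mavs, the adaptor of RIG-I, one of -0.06, which became 0.0729 without Control 3. None of the 14 was called by edgeR.

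Interferon-gamma also induces guanylate-binding proteins, immunity-related GTPases and the MHC class II genes. DESeq2 called none of the 15 tested GBP and IRG genes, whose median log2 fold change was 0.25, with 13 above 0. Without Control 3 that median was 0.0522, with 9 of the 15 above 0. Gbp2, the most abundant, had 76.2, 79.8, 75.5, 77.1 and 82.7 CPM in caIKK2EC, against 76.8, 59.9 and 41.2 CPM in Control libraries, and Control 1 lay within the caIKK2EC range (log2 fold change 0.40, and 0.20 without Control 3). Irgm1, the next, had 46.9 ± 2.41 CPM in caIKK2EC and 41.6 ± 2.74 CPM in Control (log2 fold change 0.17). Of the 11 MHC class II genes, 5 were called higher by DESeq2 (45.5%, against 4.55% of all genes). These were Cd74, H2-Aa, H2-Ab1, H2-Eb1 and H2-DMa, and the median log2 fold change of the 11 was 0.71. H2-Aa had 563 ± 64.4 CPM in caIKK2EC and 359 ± 94.9 CPM in Control (SD, n = 5 and 3; log2 fold change 0.65, DESeq2 adjusted p = 0.0141), and the log2 fold changes of H2-Ab1, H2-Eb1 and H2-DMa were 0.76, 0.66 and 0.71. Cd74, the invariant chain, had 1377 ± 152 CPM in caIKK2EC and 767 ± 177 CPM in Control (log2 fold change 0.85, DESeq2 adjusted p = 0.000192) and was the only one of them still called without Control 3 (DESeq2 adjusted p = 0.00365). These genes are at high levels in macrophages and dendritic cells, and the macrophage markers given above differed by a larger median, 0.87. Without Control 3 the median was 0.63 for the macrophage markers and 0.59 for the MHC class II genes. The part of macrophage RNA in the sensors, receptors and MHC class II genes was not tested.

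**Figure D5:**
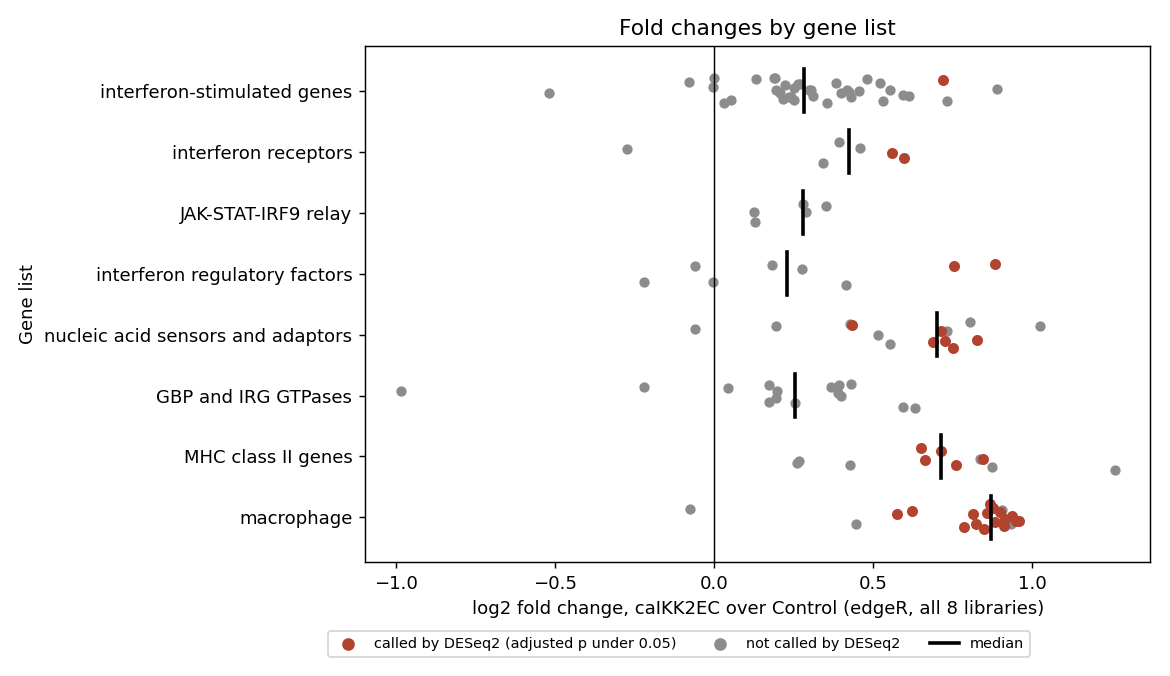
Each point is 1 gene, placed by its log2 fold change, caIKK2EC over Control (edgeR, 8 libraries), in rows by gene list; red points passed DESeq2's adjusted threshold of 0.05 and black bars are medians. The interferon-stimulated genes (median 0.28) and the GBP and IRG genes (0.25) sit near each other, left of the sensors (0.70), the MHC class II genes (0.71) and the macrophage markers (0.87). Without Control 3, which is not drawn, the medians were 0.12, 0.0522, 0.44, 0.59 and 0.63 in the same order.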

How the data were processed

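Poly(A) RNA of 8 aortas, 1 mouse each, was sequenced as directional single reads of 50 nt, per the labels' protocols. The deposited values are raw counts per gene symbol. Mouse build GRCm38 (mm10), STAR 2.7.0e, FastQC 0.11.5 and DESeq2 1.22.2 appear in the submitters' processing notes. How reads were counted, and whether by strand, is not stated in the labels, so reads of antisense neighbours and near-identical copies may be mixed. The authors' deposited table of DESeq2 results supplied log2 fold changes and adjusted p-values for comparison. The authors' other values per library were not used. In the count table, 27 gene names had been turned into dates, none of them a member.

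The test across all genes was the robust quasi-likelihood test of edgeR 4.0.16 (R 4.3.3; limma 3.58.1 for voom), with TMM factors, the package's filter on low counts and no term besides group. P-values were adjusted over all genes by Benjamini-Hochberg, with a threshold of 0.05. DESeq2 1.42.0, on genes with a total of at least 10 counts, was the other test. CPM were scaled by TMM factors, and log2 CPM used a prior count of 2. Medians over lists were not tested. Exon lengths, overlaps, coordinates and 50-base words come from GENCODE M21 (GRCm38), and promoters from RefSeq (GRCm38.p6). Other normalizations, filters, tests, covariates and left-out libraries were tried. Procedures were tested on simulated data.

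The members and gene lists were chosen with earlier results of these data known. In each role group, values per library are given for the most abundant member, the member with the largest fold change and any called member. For Bst2, Lgals9, Sp100, Ifi47 and the remaining members, values were picked after they were seen. Of each pathway list, called genes and the 2 most abundant were named, and Irf3, Irf7 and Ifnb1 were added after their values were seen. A gene of the pathway lists that this rule names is not reported here.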

Additional observations from a re-analysis of the deposited data

Results flagged for a closer look

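In 4 of the 39 groups of 5 caIKK2EC libraries examined, 1 library stood so far from the others that the gap to its nearest neighbour, divided by the whole range, exceeded Dixon's critical value of 0.71 for 5 samples. For a single group chance alone gives this in about 1 case in 20. The groups share the same 5 libraries and are not independent, so 4 of 39 cannot be set against that rate. For Ifi27 the library was caIKK2EC 1, high at 375 CPM, with a ratio of 0.867. For Oas2 it was again caIKK2EC 1, high at 35.7 CPM, with a ratio of 0.712. For Trim30a it was caIKK2EC 2, low at 38.8 CPM (ratio 0.776), and for Adar it was the same library, low at 63.9 CPM (ratio 0.848). The cause was not tested.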

How the results depend on the processing

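With 20 other settings, 700 of 760 fold changes of the 38 genes kept their direction and side of the threshold, 5 newly passed it and 55, in 16 genes, changed sign. The count of all genes called by edgeR, 0, became 869 with DESeq2 (652 higher, 217 lower), 661 with age as a covariate and 389 with DESeq2 on females only, a setting chosen after seeing the data. It was 0 to 359 when single libraries were left out, and 359 came without caIKK2EC 2. Of the 38 genes, 1 was called higher with DESeq2 (2.63%, against 4.55% of all genes) and 1 with DESeq2 on females only (2.63%, against 2.49%). With age 2 were called by edgeR (Lgals3bp, adjusted p = 0.0253, and Oas1a, adjusted p = 0.0383), beside 661 of all 14679 genes. With single libraries left out edgeR called 0 to 1 of the 38. The call was Lgals3bp without caIKK2EC 2 (adjusted p = 0.0494), beside 359 of all 14614 genes. The median log2 fold change ranged from 0.12 (without Control 3) to 0.41 (without Control 2) over left-out libraries. It was 0.48 with lane, 0.42 with age and 0.12 with sex as a covariate, and 0.09 with both caIKK2EC 1 and Control 3 left out, also chosen after seeing the data. Control 3 was the only male, so the sex term and the females-only setting both amount to leaving that library out. Of the 38 genes, 4 (10.5%, against 10.2% of all genes) had no overlap between groups. Over left-out libraries this was 4 to 13, with 13 without Control 1 (34.2%, against 20.3% of all genes), 10 without caIKK2EC 2 (26.3%, against 20.9%), 7 (18.4%) without Control 2 (against 18.9%) or caIKK2EC 4 (against 11.7%), and 4 (10.5%) without Control 3 (against 15.7%). Promoter matches were 7 of 29 (24.1%, against 0.303% of all windows) for a stricter core that ends in GAAACT, and 12 within the 250 bases before the start.

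The labels do not pair the animals by replicate number. Deviations of libraries with the same number correlated at 0.31, 0.07 and 0.20 across genes. Libraries of unlike number were not compared, so these values cannot decide whether the numbers pair animals. With the replicate number as a block (libraries numbered 1 to 3), 0 genes were called, the median of the set was 0.33 and 8 genes (21.1%, against 14.3% of all genes) had no overlap. Under this block, signs turned for Ifit2 (-0.0171), Ifi35 (0.0507), Xaf1 (0.10) and Samd9l (0.0327).

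The other changes of sign were all in fold changes that no test called. Xaf1 and Samd9l, at about 0 in the main comparison, turned positive with DESeq2 (Xaf1 0.0018) and its size factors (Xaf1 0.0011), limma-voom (0.0355 and 0.0060), no filter (0.0085 and 0.0067), a stricter filter (0.0048 and 0.0045), lane (0.20 and 0.15) and age (0.12 and 0.0626). With lane, Ifi27 (0.16), Ifi35 (0.0593) and Eif2ak2 (-0.0473) also turned, and with age Ifitm2 (-0.0138). Ifit2, Oasl2, Rtp4 and Ddx60 turned with sex as a covariate (-0.0387, -0.0207, -0.065 and -0.0243) and with DESeq2 on females only (-0.0274, -0.0094, -0.0537 and -0.0119). Both settings in effect leave Control 3 out, so they repeat the same comparison. With both caIKK2EC 1 and Control 3 left out, Ifit2 (-0.0763), Ifit3 (-0.0877), Oas1b (-0.13), Oas2 (-0.16), Oasl2 (-0.10), Rsad2 (-0.13), Usp18 (-0.11), Rtp4 (-0.12), Cmpk2 (-0.0344) and Ddx60 (-0.0309) turned negative. Over single left-out libraries, the range was -0.038 to 0.21 for Ifit2, -0.18 to 0.0493 for Ifi35, -0.0251 to 0.10 for Ifitm2, -0.0203 to 0.37 for Oasl2, -0.0645 to 0.37 for Rtp4, -0.22 to 0.33 for Xaf1, -0.13 to 0.10 for Samd9l and -0.0236 to 0.64 for Ddx60. The cause was not tested. With 3 Controls, of which 1 stands apart, small differences such as those of most of these genes cannot be resolved.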

Other observations

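Genes of other immune cells that answer to interferon were measured in the same libraries. The 7 markers of conventional dendritic cells summed to 403, 347, 459, 471 and 439.5 CPM in caIKK2EC 1 to 5, against 250.5, 296 and 215 CPM in Control 1 to 3, without overlap. Most of these sums came from a single marker, which averaged 324.5 CPM over all libraries, while the median marker was at 6.26 CPM. DESeq2 called 3 of the 7 markers higher, against 4.55% of all genes. These were Itgax (log2 fold change 0.74, adjusted p = 0.000846), Cd209a (0.97, adjusted p = 0.0141) and Ccr7, a receptor that guides dendritic cells to lymph nodes (1.17, adjusted p = 0.0106). Without Control 3 DESeq2 again called 3 of the 7 higher. Itgax and Ccr7 were among them (adjusted p = 0.00848 and 0.0207) and Cd209a was not (0.0574). Itgax is also expressed by plaque macrophages, and Zbtb46, a gene of the dendritic lineage, had a log2 fold change of 0.13. The 12 T cell markers summed to 187 to 313 CPM in caIKK2EC and to 93.2 to 188 CPM in Control libraries. The most abundant of them averaged 122 CPM over all libraries, and the median marker was at 2.06 CPM. DESeq2 called 2 of the 12, Cd4 and Il7r, at adjusted p of 0.0399 and 0.0402. Without Control 3 these 2 were not called (0.159 and 0.236). The 7 NK cell markers summed to 3.19 to 6.16 CPM in caIKK2EC and to 1.15 to 4.29 CPM in Control libraries.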
